A study of Homo sapiens with 8 samples.

Results

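Cells meet foreign or misplaced RNA with cytosolic sensors, and the signal ends in transcription factors that switch on interferons and the genes interferons induce. The genes described here are 9 members of that route: the RNA sensors DDX58 (also written RIGI), IFIH1 (MDA5) and DHX58 (LGP2), the adaptor MAVS, and the transcription factors STAT2, IRF9, IRF7, IRF1 and IRF3. They were taken by gene name from the 11244 genes of a translation efficiency table, all 9 were found there, and the matching table of input counts held 60718 genes. On textbook knowledge, 7 of them are interferon-inducible (DDX58, IFIH1, DHX58, STAT2, IRF9, IRF7 and IRF1), and 2, IRF3 and MAVS, are constitutive.

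Ribosome profiling was carried out in cells labelled HepG2, a line from a human liver tumor, with METTL5 intact (METTL5-WT) or disrupted with CRISPR-Cas9 guides placed to cut out internal exons (METTL5-KO). METTL5 methylates an adenosine of the small-subunit ribosomal RNA. Cells of both genotypes received cycloheximide, which stalls ribosomes on mRNA, at 100 μg/ml for 7 min, and no interferon or virus is named in the labels. Part of each lysate gave the input RNA library, and the nuclease-digested remainder gave the library of ribosome-protected fragments (RPF), so that 2 replicates of each genotype made 8 libraries. The study grew its lines from single cells and does not state which clone gave which replicate, so that clone and genotype cannot be told apart. Nothing in the labels says that the replicates were separate cultures, and p-values here measure the spread between these libraries, which may be technical.

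Input libraries held 10710226 to 15307257 counts. RPF libraries held 3970779 and 4592443 reads in METTL5-WT against 8626705 and 9255921 in METTL5-KO, so the METTL5-WT footprints were the shallowest. METTL5 itself had 490 and 542 input counts in METTL5-WT against 208 and 151 in METTL5-KO, a 3.63-fold lower level (log2 change −1.86 ± 0.18 SE), and its RPF values were 11.8-fold lower. The defining genes of liver cells were at or near 0 in both genotypes. Of 8 hepatocyte and HepG2 markers, TTR, SERPINA1 and FGB had no count in any input library, ALB had 1 count in all and HNF4A had 2, and AFP had 0 and 0 in METTL5-WT against 5 and 9 in METTL5-KO. Their summed level was 0.178 to 0.187 CPM (counts scaled to library size) in METTL5-WT and 0.473 to 0.784 in METTL5-KO. A further 9 liver secretory genes, chosen after these values were seen, summed to 0.280 to 0.803 CPM over the 4 libraries, with no gene above 7 counts. The cells are therefore called here only by their label and genotype. Leukocyte markers (8 genes, 3 of them at 0 in all input libraries) summed to 0 to 0.268 CPM in METTL5-WT and 0.653 to 1.03 in METTL5-KO, carried by 11 and 8 counts of CD14. Fibroblast and endothelial markers (6 genes, none at 0 throughout) summed to 47.0 to 57.0 and 62.6 to 73.0, mostly COL1A1 and DCN. The part of these marker differences in the results was not tested.

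DDX58 and IFIH1 bind double-stranded or 5′-triphosphate RNA and then engage MAVS on the mitochondrial surface, which recruits the kinases that phosphorylate IRF3 and IRF7. DHX58 binds RNA but lacks the signaling domain of the other sensors. Secreted interferon acts back through the JAK kinases on the complex that holds STAT2 and IRF9 and binds interferon-stimulated response elements, whereas IRF1 is a classical interferon-gamma target with a gamma-activated site. Promoter sequences were searched for the cores of these elements because most of the inducible genes moved together. RefSeq promoters of GRCh38.p14, 250 bases before to 50 after the start, were matched for 6 of the 9 genes (DDX58, IFIH1, MAVS, STAT2, IRF9 and IRF1). The response element core GAAANNGAA, searched on both strands, was found in IFIH1 alone among them, with 4 matches, and in 8.11% of all 35116 promoters. The gamma-activated core TTCNNNGAA, which is its own reverse complement, was found once in IRF1 and once in IRF9, and in 7.66% of promoters. The matched stretches are shown with 15 flanking bases, written 5′ to 3′ on the gene's strand with the matches in capitals.
IFIH1 distal, chr2:162318813-162318863, minus strand, 3 overlapping matches read on the opposite strand: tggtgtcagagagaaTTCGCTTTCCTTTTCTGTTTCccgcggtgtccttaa
IFIH1 proximal, chr2:162318682-162318720, minus strand, 1 match: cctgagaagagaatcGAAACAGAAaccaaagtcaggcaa
IRF1, chr5:132490874-132490912, minus strand, 1 match: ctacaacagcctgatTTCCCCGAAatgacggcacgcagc
IRF9, chr14:24161187-24161225, plus strand, 1 match: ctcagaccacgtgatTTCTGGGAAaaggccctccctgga
The IFIH1 matches began 164 and 21 bases before the start, that of IRF1 124 and that of IRF9 63 bases before it. The DDX58, STAT2 and MAVS windows held neither core. These are matches of letters in short windows, and binding was not measured.

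At the level of input RNA, all 7 inducible genes were higher in METTL5-KO, from 1.84-fold for IRF1 to 19.3-fold for IRF7, while MAVS was at 0.63 of its METTL5-WT level and IRF3 was not called changed (1.01-fold). A gene was called when edgeR's quasi-likelihood test gave an adjusted p-value under 0.05. Of 14054 genes tested, 11.8% were called higher and 10.6% lower. The median log2 change was 1.61 for the inducible genes and −0.00425 over all genes. In such bulk RNA, more RNA per cell and more cells with the RNA cannot be told apart.

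In the RPF libraries 6 of the 7 inducible genes were called higher, from 2.04-fold for IRF1 to 7.46-fold for IRF7, DHX58 was not called, and MAVS was again lower, by 1.77-fold. RPF and translation efficiency (TE, the RPF change over the input change) were called only where limma on log2(value + 1) and edgeR on the recovered reads both gave an adjusted p-value under 0.05 in the same direction. The RPF background was 14.9% of 11240 genes called higher and 12.3% called lower, and the median log2 change was 1.46 for the inducible genes against 0.02 for all genes. For TE, 0 of the 9 genes were called, where 4.75% of genes were called in either direction.

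**Figure D1:**
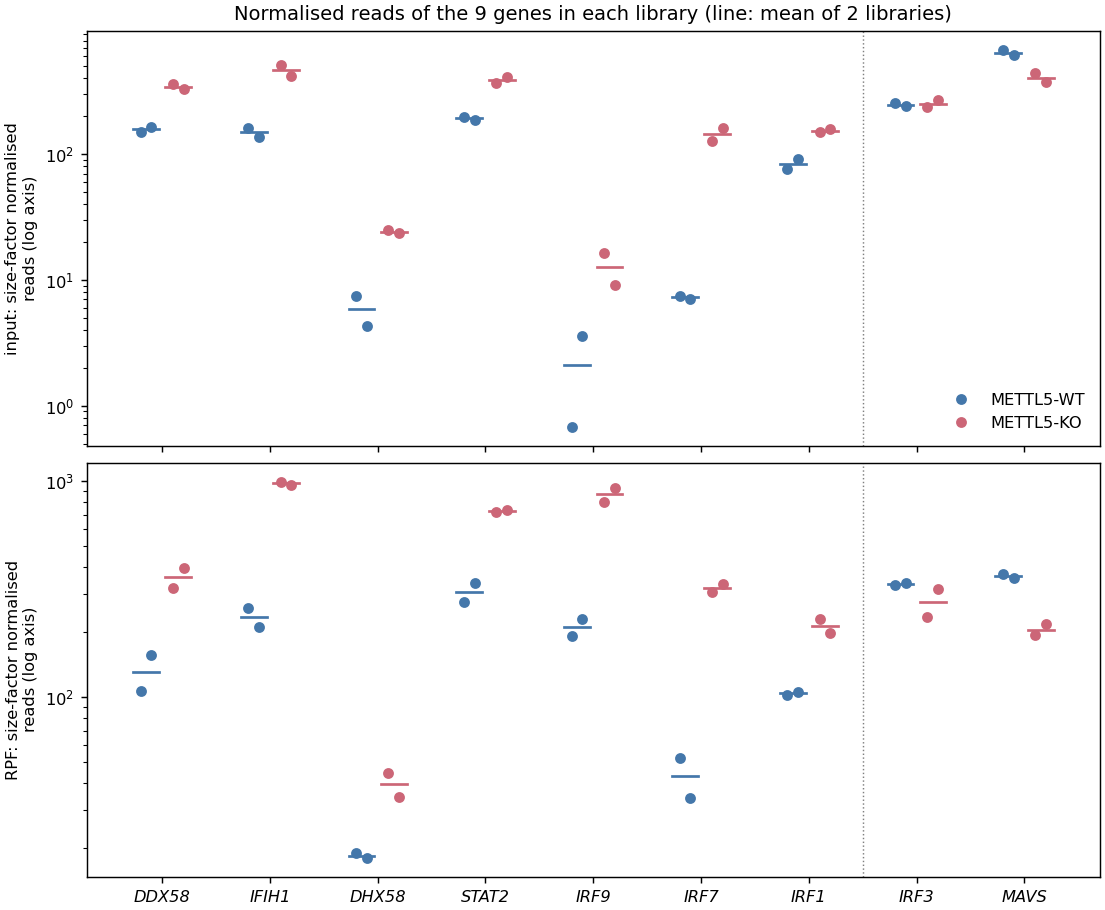
Size-factor normalised reads (log axis) of the 9 genes in each of 4 input (top) and 4 RPF (bottom) libraries; points are libraries, lines are means of 2, and the dotted line separates inducible from constitutive genes. Each inducible gene was higher in both METTL5-KO libraries than in either METTL5-WT library, MAVS was lower in both, and IRF3 overlapped in input. The share of all genes separated in this way was not counted.

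Among the sensors, DDX58 (chromosome 9, 32455302 to 32526208) had normalised input reads of 151 and 165 in METTL5-WT against 360 and 329 in METTL5-KO. In RPF it had 107 and 156 against 322 and 397. The genotypes did not overlap in either library type. For 2 against 2 libraries, such a separation gives p = 0.333 in an exact permutation test. The share of all genes without overlap was not counted, here or for the genes below. The input change was 2.16-fold (log2 1.11 ± 0.15 SE, edgeR adjusted p = 5.61e-06) and the RPF change 2.75-fold (log2 1.46 ± 0.20, limma adjusted p = 4.44e-05, edgeR 3.06e-06).

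IFIH1 (chromosome 2, 162267074 to 162318684) went from 162 and 137 normalised input reads to 509 and 415. Its footprints went from 259 and 213 to 996 and 960, the most normalised RPF reads of the 9 genes in METTL5-KO. Again no METTL5-KO library reached down to a METTL5-WT library. Input was 3.06-fold higher (log2 1.61 ± 0.15, edgeR adjusted p = 3.18e-08) and RPF 4.15-fold higher (log2 2.05 ± 0.16, limma adjusted p = 6.76e-08, edgeR 2.02e-11).

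DHX58 (chromosome 17, 42101404 to 42112714) was scarce, with 11 and 6 input counts in METTL5-WT against 41 and 47 in METTL5-KO. It had 8 and 9 footprints in METTL5-WT against 37 and 31 in METTL5-KO. Although the genotypes did not overlap after normalization in either library type, only input was called (4.01-fold, log2 2.01 ± 0.49, edgeR adjusted p = 0.00431). The RPF difference was log2 1.05 ± 0.45 (limma adjusted p = 0.0947, edgeR 0.103), with a 95% interval of 0.09 to 2.00 that holds a doubling. The input call was lost without METTL5-WT replicate 2 (log2 1.67, adjusted p = 0.0610).

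The adaptor MAVS (chromosome 20, 3846799 to 3876123) ran the other way. Its normalised input reads were 671 and 608 in METTL5-WT against 438 and 371 in METTL5-KO, with footprints at 373 and 355 against 194 and 217. Every METTL5-KO library lay below every METTL5-WT library of its type. The log2 change was −0.68 ± 0.13 in input (edgeR adjusted p = 0.000412) and −0.82 ± 0.15 in RPF (limma adjusted p = 0.000487, edgeR 0.000334). Without METTL5-WT replicate 1 the input call was lost (log2 −0.60, adjusted p = 0.0634).

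The genes beside MAVS on the chromosome were lower too. The 40 tested genes closest to it, 20 on each side, had a median input log2 change of −0.52 with quartiles of −0.76 and −0.16, so that MAVS at −0.68 lay within their middle range. For the 38 tested genes around IRF7, near the end of chromosome 11, the median was 0.62 with quartiles of 0.40 and 0.95, well short of the 4.27 of IRF7 itself. Neighbors of the other 7 genes had medians between −0.13 and 0.28. For IRF3 the neighbors' median was the 0.28, with quartiles of −0.03 and 0.41 around its own 0.01. The part of these regional differences in the changes of MAVS and IRF7 was not tested.

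**Figure D2:**
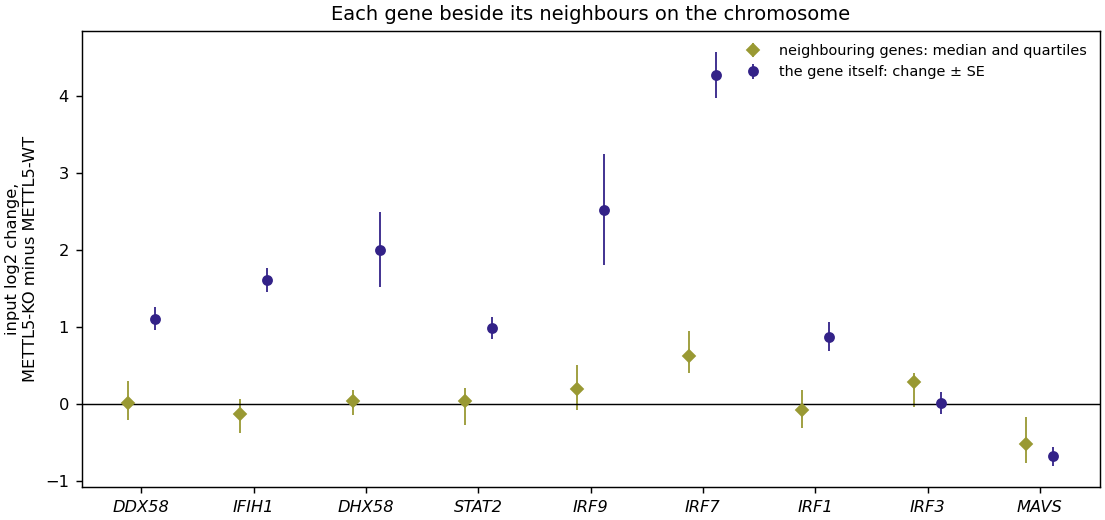
Input log2 change (METTL5-KO minus METTL5-WT) of each gene with its SE, beside the median and quartiles of up to 40 tested neighboring genes on its chromosome. MAVS at −0.68 lies near its neighbors' median of −0.52, whereas the inducible genes lie above theirs.

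Of the interferon response complex, STAT2 (chromosome 12, 56341597 to 56360167) had normalised input reads of 198 and 188 in METTL5-WT against 367 and 407 in METTL5-KO. Footprints stood at 276 and 337 against 721 and 734. Groups were apart in both types, by 1.99-fold in input (log2 0.99 ± 0.14, edgeR adjusted p = 1.54e-05) and 2.38-fold in RPF (log2 1.25 ± 0.15, limma adjusted p = 9.45e-06, edgeR 2.59e-07).

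IRF9 (chromosome 14, 24161265 to 24166565), the DNA-binding subunit of that complex, had only 1 and 5 input counts in METTL5-WT against 27 and 18 in METTL5-KO. Its footprints were plentiful in the same lysates, at 81 and 115 reads in METTL5-WT against 664 and 838 in METTL5-KO. The RPF values (192 and 231 against 801 and 934 normalised reads) did not overlap, with a change of 4.09-fold (log2 2.03 ± 0.42, limma adjusted p = 0.00159, edgeR 1.67e-09). The fitted input change was log2 2.53 ± 0.73 (edgeR adjusted p = 0.0139) and rests on few counts: the summed counts gave a depth-scaled ratio of 5.88 with an exact 95% counting interval of 2.50 to 16.9. The input call was lost without METTL5-WT replicate 1 (log2 1.79, adjusted p = 0.247), without METTL5-KO replicate 1 (log2 2.07, adjusted p = 0.142) and with DESeq2 (log2 2.58, adjusted p = 0.0595). Without METTL5-WT replicate 2 it was kept, at a larger log2 4.05 (adjusted p = 0.0195). The RPF call was lost without METTL5-KO replicate 2 (log2 1.92, adjusted p = 0.0553).

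The gap between IRF9's input and footprints went with its annotation. All 1179 of its coding bases, and 42.2% of its 3582 exonic bases, lie in exons of a second gene on the same strand, ENSG00000259529, which itself had 1, 7, 4 and 3 input counts. Per the file header, input reads were counted per gene by strand without the option that assigns reads overlapping several genes. The log2 ratio of normalised RPF to input was 6.26 ± 0.83 (SD, n = 2) for IRF9 in METTL5-WT, and 14 of 11240 genes had a higher one. Among the 84 genes whose coding bases were all shared in this way the median ratio was 2.37, with 60.7% above the 95th percentile of all genes. Among the 10287 genes with no shared coding base the median was −0.01, with 3.75% above it. IRF9's input level, and with it its TE, are therefore uncertain, and the part of the overlap in the values was not tested. No other gene of the 9 shares exonic bases on its own strand. IRF1 shares 22.1% of its exonic bases with IRF1-AS1 and IRF3 19.3% with BCL2L12, both on the opposite strand, which the stranded input counts set apart.

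**Figure D3:**
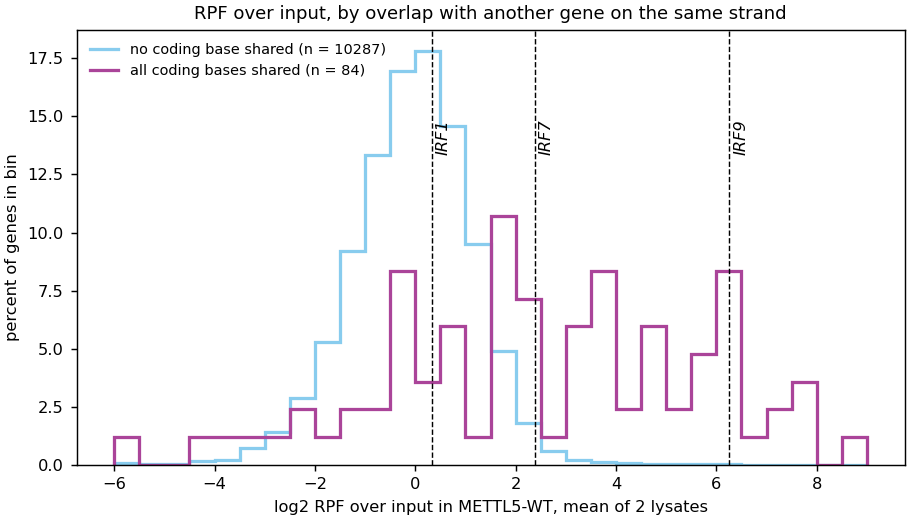
Percent of genes by log2 RPF over input in METTL5-WT (mean of 2 lysates, bins of 0.5), for 10287 genes with no coding base and 84 genes with all coding bases shared with another gene on the same strand. Dashed lines mark IRF1 at 0.33, IRF7 at 2.38 and IRF9 at 6.26.

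IRF7 (chromosome 11, 612553 to 615983), the amplifier of the interferon-alpha response, changed more than any other of the 9 genes. It had 11 and 10 input counts in METTL5-WT against 209 and 321 in METTL5-KO. Its footprints numbered 22 and 17 against 256 and 300. Normalised reads went from 7.49 and 7.11 to 126 and 161 in input (19.3-fold, log2 4.27 ± 0.30, edgeR adjusted p = 1.77e-10) and from 52.3 and 34.1 to 309 and 335 in RPF (7.46-fold, log2 2.90 ± 0.30, limma adjusted p = 2.59e-06, edgeR 1.14e-09). In both types the lowest METTL5-KO library was several times the highest METTL5-WT library.

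IRF1 (chromosome 5, 132481609 to 132490777), an activator of inflammatory and antigen-presentation genes, had 75.6 and 90.9 normalised input reads in METTL5-WT against 149 and 159 in METTL5-KO. RPF reads were 102 and 106 against 230 and 198. The genotypes were apart in both, by 1.84-fold in input (log2 0.88 ± 0.19, edgeR adjusted p = 0.00135) and 2.04-fold in RPF (log2 1.03 ± 0.22, limma adjusted p = 0.00186, edgeR 0.00108). The input call was lost without METTL5-WT replicate 1 (adjusted p = 0.0576) and the RPF call without METTL5-KO replicate 1 (adjusted p = 0.0520).

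IRF3 (chromosome 19, 49659569 to 49665875), which is activated by phosphorylation rather than by new synthesis, had 254 and 242 normalised input reads in METTL5-WT against 237 and 268 in METTL5-KO. The groups overlapped (log2 0.01 ± 0.14, edgeR adjusted p = 0.962). Footprints were 330 and 337 in METTL5-WT against 235 and 316, the METTL5-KO pair lying lower but not called (log2 −0.29 ± 0.17, limma adjusted p = 0.218, edgeR 0.270, 95% interval −0.65 to 0.07).

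TE was estimated with less precision than either level. The log2 TE changes were 0.34 ± 0.28 (SE) for DDX58, 0.44 ± 0.22 for IFIH1, 0.25 ± 0.21 for STAT2 and 0.15 ± 0.31 for IRF1. They were −0.16 ± 0.21 for MAVS, −0.31 ± 0.24 for IRF3, −0.22 ± 0.59 for IRF9 and −0.87 ± 0.64 for DHX58. The 95% intervals bound what could have been missed: −0.04 to 0.91 for IFIH1, −0.25 to 0.93 for DDX58, −0.19 to 0.69 for STAT2 and −0.59 to 0.27 for MAVS. Those of DHX58 (−2.22 to 0.49) and IRF9 (−1.46 to 1.03) allow changes beyond 2-fold.

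The lowest TE estimate was that of IRF7, at −1.21 ± 0.43 with an interval of −2.12 to −0.31. Its log2 RPF over input was 2.65 and 2.11 in the METTL5-WT lysates and 1.29 and 1.05 in METTL5-KO, without overlap, and its place among all genes went from the 97.7th to the 86.6th percentile. After adjustment over all genes it was not called (limma adjusted p = 0.102, edgeR 0.0677). It was the gene of the 9 that passed a rule of a 2-fold change with an unadjusted p-value under 0.05. Its METTL5-WT ratio rests on 10 and 11 input counts. IRF7 also has the highest coding GC content of the 9, at 67.9% against 40.6% for DDX58. Its TE change was −0.80 with the GC trend removed, and also −0.80 with a pseudocount of 5. The part of GC content or of the few counts in this estimate was not tested.

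**Figure D4:**
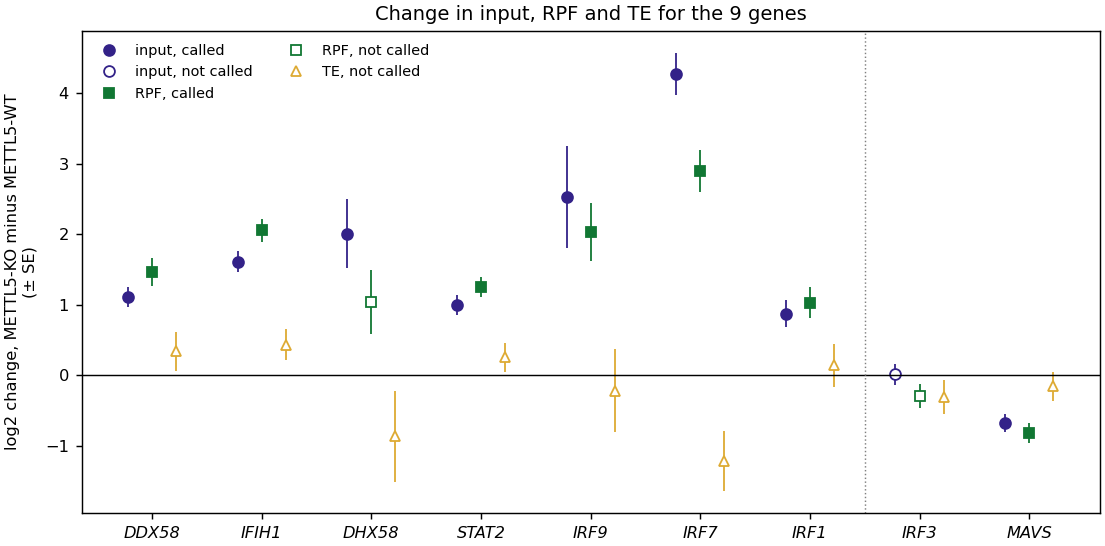
Log2 change (METTL5-KO minus METTL5-WT, ± SE) of input, RPF and TE for the 9 genes, with filled symbols for called and open symbols for not called changes. Input and RPF lie above 0 for the 7 inducible genes and below 0 for MAVS, and all 9 TE symbols are open.

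Scaled per length, the order of the genes differed between genotypes. In METTL5-WT input, IRF3 (24.7 ± 0.74 TPM, the length-scaled share of input reads, SD, n = 2) and MAVS (20.6 ± 1.32) stood above DDX58 (12.9 ± 0.86). Next came STAT2 (11.8 ± 0.39) and IFIH1 (11.1 ± 1.25), whose libraries overlapped, followed by IRF1 (4.06 ± 0.55). IRF7 (1.06 ± 0.03), DHX58 (0.58 ± 0.22) and IRF9 (0.22 ± 0.22) were the lowest. The place of IRF9 in input is uncertain in both genotypes, given the shared bases described above. In METTL5-KO input the first places were held by IFIH1 (29.6 ± 6.70 TPM) and DDX58 (24.1 ± 3.55), which overlapped. IRF3 (21.5 ± 0.05), STAT2 (20.2 ± 0.23) and IRF7 (17.7 ± 1.59) followed without overlap, then MAVS (11.2 ± 2.24), IRF1 (6.40 ± 0.24), DHX58 (2.05 ± 0.24) and IRF9 (1.16 ± 0.56).

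Footprint density per coding length gave IRF9 another place. In METTL5-WT, IRF3 (27.9 ± 0.87, recovered RPF reads scaled to coding kilobases and to library depth, as RPKM is) and MAVS (24.1 ± 0.44) led, and IRF9 came next at 19.3 ± 2.78. In METTL5-KO, IRF9 led at 71.0 ± 8.14, followed by IFIH1 (30.7 ± 0.63) and STAT2 (27.5 ± 0.49). IRF1 (21.2 ± 2.11), IRF3 (20.8 ± 4.40) and IRF7 (20.6 ± 1.28) overlapped, as did DDX58 (12.5 ± 1.91) and MAVS (12.3 ± 1.05). DHX58 was last in both genotypes, at 0.98 ± 0.02 and 1.88 ± 0.33.

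The rest of the pathway was read from lists of named genes. The 8 interferon ligand genes that were listed were near 0, and IFNA1 was the only interferon-alpha gene among them. Of these 8, 5 (IFNA1, IFNK, IFNL1, IFNL2 and IFNG) had no count in any input library. IFNB1 and IFNL3 had 1 count each in METTL5-KO replicate 2, and IFNE had 1 to 3 counts in every library. Interferon genes outside the list were not examined. None of the 8 could be tested. A count of 0 allows up to 0.196 to 0.280 CPM in these libraries, counting error only.

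Of 10 receptor-side genes, 2 were called higher and 1 lower in input, and 2 were called higher in RPF. Over all genes, 11.8% were called higher and 10.6% lower in input, and 14.9% higher in RPF. For a list of 10 genes these counts are not far from those shares. TYK2, a kinase of the interferon-alpha receptor, was 1.57-fold higher in input (edgeR adjusted p = 0.00102) with 0.95-fold footprints, and its TE was called lower (log2 −0.73 ± 0.19, larger adjusted p of limma and edgeR 0.0369). JAK1, the kinase paired with it, was lower in input (0.80-fold), and the receptor chain IFNAR1 was higher in RPF (1.40-fold). The list's median input log2 change was 0.16.

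Among 15 adaptor and kinase genes, 2 were called higher in input, a share near the 11.8% of all genes: TRIM25, a ubiquitin ligase that acts on DDX58 (1.75-fold in input and 1.78-fold in RPF), and RELA, a subunit of NF-κB (1.35-fold). TRAF3, which links MAVS to the kinases, was the only gene of this list called lower in RPF (0.59-fold), against 12.3% of all genes. The kinase genes TBK1 (1.07-fold) and IKBKE (1.44-fold) were not called in input, and the list's median was 0.19. A list of 8 further genes held other IRFs and genes of IRF2-binding proteins, and 4 were tested in input. IRF2BPL, of the binding-protein kind, was the only one called (1.28-fold). IRF2, the only IRF among those tested in input, was not called (1.19-fold, edgeR adjusted p = 0.481). IRF4 and IRF8 had at most 2 counts in any input library.

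Of 10 tested nucleic acid sensors outside the 9 genes, 6 were called higher and none lower in input, with a median log2 change of 0.50. The shares of all genes were 11.8% higher and 10.6% lower in input, and 14.9% higher in RPF. IFI16, a DNA sensor, went from 7 and 16 to 1037 and 1036 input counts (70.2-fold) and was 30.3-fold higher in RPF. STING1, the adaptor of DNA sensing, was 1.70-fold higher, EIF2AK2 (PKR) 1.67-fold and TICAM1, the adaptor of TLR3, 1.43-fold. In RPF, EIF2AK2 (2.05-fold), ADAR (1.65-fold) and ZC3HAV1 (1.39-fold) were called beside IFI16. The DNA sensor CGAS was not called in input (0.81-fold).

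Negative regulators were mixed: 4 of 12 tested were higher and 1 lower in input, with a median log2 change of 0.07. Over all genes, 11.8% were called higher and 10.6% lower. TRIM21 (4.10-fold), USP18, which blocks the interferon receptor (2.19-fold), and RNF125 (1.90-fold) were higher. SOCS3 was higher close to the threshold (1.36-fold, edgeR adjusted p = 0.0450), and the phosphatase PTPN2 was lower (0.74-fold). Of RNF125's coding bases, 72.4% are shared with other annotation on the same strand, so its input level is uncertain too. TRIM21, USP18 and RNF125 were also called higher in RPF, by log2 1.93, 1.45 and 1.42, where 14.9% of all genes were called higher.

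Of the lists, the interferon-stimulated effectors moved most, though the lists were chosen with earlier results of these data known. In input 22 of 23 were called higher and none lower, with a median log2 change of 1.83, against 11.8% of all genes called higher. In RPF 21 of 22 were called higher, with a median of 2.15, against 14.9% of all genes. IFI27 was 90.5-fold and OAS2 31.2-fold higher in input. IFI44L went from 3 and 4 to 818 and 966 input counts, and GBP1 from 6 and 1 to 359 and 501, with depth-scaled ratios of 200 (exact 95% counting interval 96.7 to 497) and 96.3 (46.5 to 240). MX1 was the gene not called in input (9 and 16 against 16 and 25 counts). For TE 1 effector was called higher, IFIT5 (log2 0.93 ± 0.18), and 1 lower, IFI44L (−1.97 ± 0.46), out of 22. The IFI44L estimate rests on 3 and 4 input counts and 4 and 9 footprints in METTL5-WT. Of all genes, 4.75% were called in TE in either direction.

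**Figure D5:**
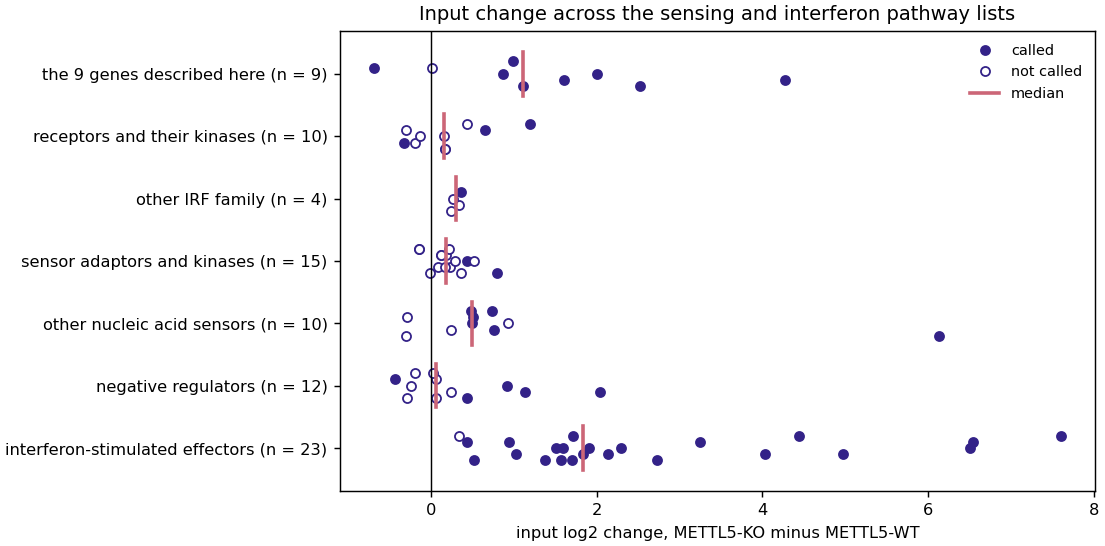
Input log2 change (METTL5-KO minus METTL5-WT) of each tested gene of the 9 described here and of 6 pathway lists, filled where called by edgeR and open where not, with the list's median as a bar. Medians run from 0.07 for negative regulators to 1.83 for effectors.

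Genes with the most similar profiles over the 8 libraries were sought among 10619 others as the smallest root mean square difference of log2(value + 1), centred within library type. For DDX58 they were HMOX1 (0.08), NAMPT (0.09) and IFIT2 (0.12). For IFIH1 they were GRID1 (0.11), IFIT1 (0.13) and SLC7A11 (0.14). IRF7 was nearest to HLA-B (0.23), OLFM1 (0.30) and PPDPFL (0.30), and the nearest of IRF9 included CCL5 (0.27) and PCDHB11 (0.38). DHX58 was nearest to OSGIN1, CSF1 and RARRES2 (0.24 each), STAT2 to SH3PXD2B (0.07), PGD (0.08) and UNC93B1 (0.09), and IRF1 to ZNF605 (0.06), UNC93B1 (0.08) and BHLHE40 (0.10). MAVS was nearest to RRBP1 (0.05), NETO2 (0.07) and XPO4 (0.07), and IRF3 to ZDHHC3 (0.04), SNRNP70 (0.05) and RPTOR (0.05). Of the effector list above, IFIT2 thus stood among the nearest of DDX58 and IFIT1 among those of IFIH1. The other genes named here are not on that list, and their response to interferon was not examined.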

How the data were processed

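Input RNA and RPF were sequenced in cells labelled HepG2, with 2 libraries per genotype and type, grouped by sample title. The authors aligned input reads to hg38 with STAR and deposited raw counts per gene from featureCounts, counted by strand over exons. RPF reads were processed by the authors with RiboToolkit. The deposited values of the TE table, called RPKM by the authors, are a signal: whole reads divided by a size factor (100% of values whole within 0.1, and 100% of those for input matching the raw counts). The recovered reads were used in the count tests. The design had assumed RPKM. The authors' own TE fold changes and p-values in that table were not used.

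Input counts were tested with edgeR 4.0.16 (quasi-likelihood, TMM, filterByExpr). The SE printed for input is the absolute log2 change divided by the square root of that test's F statistic. For RPF and TE, limma 3.58.1 (trended eBayes) was run on log2(value + 1) in a single model of 8 libraries, and edgeR on the recovered reads, and both had to pass. Genes entered where the input mean and the RPF mean were each at least 1. That scale understates changes of low genes. Tests were two-sided, with Benjamini-Hochberg adjustment over all genes tested. An exact permutation test of 2 against 2 libraries cannot go below p = 0.333 and was not used. DESeq2 1.42.0 was an alternative, and the fits were tested on simulated data. R was 4.3.3 and Python 3.11.15.

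Coordinates, exon overlap and coding GC came from the GENCODE annotation of GRCh38. Named were the 9 genes, METTL5, up to 4 called genes with the largest change per pathway list and type, and the 3 nearest profiles per gene. JAK1, PTPN2, RELA, TBK1, IKBKE, IRF2, CGAS, MX1 and the genes named at or near 0 were named after their values were seen where this rule does not give them. The 9 genes and the lists were chosen with earlier results of these data known. Replicate numbers did not pair METTL5-WT with METTL5-KO samples. Input and RPF libraries of the same number and genotype share a lysate, and the main model of RPF and TE did not use this. Some genes that this rule names are not reported here.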

Additional observations from a re-analysis of the deposited data

How the results depend on the processing

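Of the values for the 9 genes, 96 of 108 in input, 166 of 170 in RPF and 162 of 170 in TE kept their direction and their side of the threshold over 12, 19 and 19 alternatives. Members called in input numbered 8, and 5 under a rule of 2-fold with an unadjusted p-value under 0.05. Each replicate was also left out in turn. For input this removed 1 library, and for RPF and TE both the input and the RPF library of that replicate. Some calls in input and RPF were then lost, as given for the genes above. In TE, the 2-fold rule called 1 member, IRF7. Signs turned only for changes that were not called: IRF3 input was −0.02 without METTL5-WT replicate 2, −0.0783 without METTL5-KO replicate 2 (leave-one-out range to 0.111) and −0.15 with the GC trend removed. With the GC trend removed, TE of MAVS was 0.14 and of IRF3 0.0030. IRF9 TE was 0.70 with a pseudocount of 5, 0.37 without METTL5-WT replicate 1 and 0.28 without METTL5-KO replicate 1, and without the latter MAVS TE was 0.0426 and IRF1 TE −0.0094. Leave-one-out ranges of TE were −0.81 to 0.37 for IRF9, −0.36 to 0.0426 for MAVS and −0.0094 to 0.30 for IRF1. The cause of these turns was not tested. Same-numbered libraries of the 2 genotypes did not deviate together (r = 0.039 in input and −0.0021 in RPF). Nor did the input and RPF library of a lysate (r = −0.016 in METTL5-WT and 0.053 in METTL5-KO). The main TE model did not use that pairing. A block on the replicate number, or for TE on the lysate, changed no member's call: 8 were called in input, 7 in RPF and 0 in TE. Scaling the recovered reads by TMM was chosen after seeing the data and changed no count of members called. IRF9 was absent from RPF and TE with a mean of at least 10. In input it stayed under a mean of at least 10 counts and was called (log2 2.53, edgeR adjusted p = 0.0124). Over all genes, 3149 were called in input against 1139 under the 2-fold rule, and 3053 in RPF against 888 under that rule. Both numbers changed with a replicate left out. TE calls over all genes were the least stable: 534 in the main fit against 837 with DESeq2 and 787 with a lysate block. Their number was 321 under the 2-fold rule, 1 with limma without the variance trend, and under 534 with any replicate left out. The 534 were 302 higher and 232 lower. With the GC trend removed the split was 156 and 66, and after quantile normalization 202 and 241. Depth limits the low genes most: DHX58, IRF9 and IRF7 had 1 to 11 input counts per METTL5-WT library.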
